A study of Mus musculus with 8 samples.

Results

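The T-tubule and caveola genes Jph1, Jph2, Bin1, Cav1, Cav2, Cav3 and Dysf were followed through the transcriptome of neonatal mouse cardiomyocytes. They were chosen by symbol, as 7 of the 48440 entries of the deposited count table, and all 7 were found there. Cardiomyocytes came from C57BL6/J pups on postnatal day 2, and each of 4 litters gave 1 male and 1 female heart, so that 8 libraries (4 male, 4 female) were made. The labels name no transgene or treatment, and each library is 1 heart. A litter is therefore seen through 2 pups of opposite sex, and litter and any day of handling cannot be told apart.

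T-tubules are inward folds of the cardiomyocyte surface membrane that carry voltage-gated calcium channels deep into the cell, where they face the calcium release channels of the sarcoplasmic reticulum in a junction called the dyad. Junctophilins tether the 2 membranes of that junction, amphiphysin 2 (Bin1) bends membrane into tubules and gathers calcium channels there, and dysferlin takes part in membrane resealing and tubule upkeep. Caveolins build caveolae, small flask-shaped pits of the surface membrane. Caveolin 3 is the muscle form, while caveolins 1 and 2 are abundant in endothelial cells and fibroblasts. Mouse ventricular myocytes have no mature T-tubule network at birth. All libraries are of 1 age, so they show levels before tubule formation and no change across it.

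Library totals ran from 14226342 to 24910243 counts. Levels are given as CPM, the count of a gene scaled to the library total, with totals corrected by TMM factors of 0.951 to 1.02. Intervals of single libraries are 95% exact binomial intervals and cover counting error only. The cardiomyocyte identity was checked with 15 sarcomere and calcium-handling genes, whose summed level was 83315 to 111054 CPM per library. Litter 3 held the lowest sums, 84164 CPM in the male and 83315 CPM in the female, against 98041 to 111054 CPM in the other 6 libraries. Markers of endothelial cells (16 genes, 32.5 to 261 CPM summed) and fibroblasts (15 genes, 251 to 465 CPM summed) were present at lower levels in every library, with none of these genes at 0. Of 9 macrophage genes 6 had 0 counts in at least 1 library, and Ptprc and Fcgr1 had at most 3 counts in all libraries together. Mural genes summed to 917 to 1554 CPM, of which Acta2 alone gave 343 to 1037 CPM. Erythroid genes summed to 97.7 to 529 CPM, highest in the male of litter 3. In RNA from a mixed preparation, fewer cells of a type and less RNA per cell cannot be told apart.

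In the mm10 build, Jph1 lies on chromosome 1 (chr1:16964560-17097889, minus strand) and Jph2 on chromosome 2 (chr2:163336242-163397993, minus strand). Cav1, Cav2, Cav3 and Dysf share the plus strand of chromosome 6. Cav2 (chr6:17281185-17289115) is followed by Cav1 (chr6:17306335-17341452) after 17.2 kb, while Dysf (chr6:84008590-84211060) and Cav3 (chr6:112459505-112472872) lie far from that pair. No 100-base window of the longest transcript of 6 of the genes occurs in a transcript of another gene. The exception is Dysf, with 0.97% of its windows shared with 2 antisense transcripts, Gm15475 and Gm33024. Gm15475 had at most 2 counts in a library. Exons of Bin1 overlap those of the antisense gene A830052D11Rik over 6.22% of their length, and that gene had 0 counts in every library.

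The caveolin genes gave the clearest contrast among the members, since the neighbours Cav1 and Cav2 moved together and their relative Cav3 did not move with them. The 250 bases before the start site of each are shown for that reason, from RefSeq on GRCm38.p6. The windows are chr6:17306085-17306334 for Cav1, chr6:17280935-17281184 for Cav2 and chr6:112459255-112459504 for Cav3, all on the plus strand. Capitals mark matches to searched motifs.
Cav1: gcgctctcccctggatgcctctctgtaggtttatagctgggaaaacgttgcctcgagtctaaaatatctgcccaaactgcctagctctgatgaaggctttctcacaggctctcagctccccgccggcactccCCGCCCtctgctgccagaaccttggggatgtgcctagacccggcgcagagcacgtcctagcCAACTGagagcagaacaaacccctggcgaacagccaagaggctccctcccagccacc
Cav2: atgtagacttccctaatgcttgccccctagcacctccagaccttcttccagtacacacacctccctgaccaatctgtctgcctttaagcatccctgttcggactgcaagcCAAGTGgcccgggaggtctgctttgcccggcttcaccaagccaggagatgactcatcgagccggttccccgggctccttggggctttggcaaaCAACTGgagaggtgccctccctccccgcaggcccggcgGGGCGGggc
Cav3: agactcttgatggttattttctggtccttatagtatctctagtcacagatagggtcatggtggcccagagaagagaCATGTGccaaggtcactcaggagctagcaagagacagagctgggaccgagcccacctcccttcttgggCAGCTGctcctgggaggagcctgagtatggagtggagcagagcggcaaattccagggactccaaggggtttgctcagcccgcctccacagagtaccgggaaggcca
The letters searched on both strands were the ETS core CCGGAA, the E-box CANNTG, the MCAT element CATTCC, the GC box GGGCGG, the letters AGATAA of the GATA family and the MEF2 motif, which is CTA and TAG set 4 bases apart. Matches in these windows do not overlap each other. The E-box was matched 1 time in Cav1, 2 times in Cav2 and 2 times in Cav3, and 66.2% of 32851 windows of the same length before RefSeq start sites hold it. The GC box was matched 1 time each in Cav1 and Cav2, 118 and 9 bases before the start site, and was not matched in Cav3. It occurs in 32.7% of all such windows. The other 4 motifs had no match in the 3 windows, and 12.6% of all windows hold the MCAT letters, 12% the ETS core, 3.2% the MEF2 form and 9.99% the GATA form. The window of Jph2, not shown, was searched in the same way. It holds 1 GC box and 1 E-box, 17 and 9 bases before the start site. Jph2 did not move with Cav1 and Cav2 over the libraries either.

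Compared per length, as CPM per kilobase of annotated exon, Cav3 and Jph2 stood far above the other members. The medians over the 8 libraries were 137 for Cav3, 111 for Jph2, 7.27 for Dysf, 3.89 for Jph1, 2.55 for Cav1, 0.329 for Cav2 and 0.120 for Bin1. Cav3 was above Jph2 in 8 of 8 libraries, by 1.12 to 1.71 times, although the ranges over libraries overlapped (121 to 187 against 77.6 to 129). Jph2 was 12.8 to 19.7 times Dysf, and Dysf was 1.18 to 2.39 times Jph1, with no overlap of ranges in either case. Jph1 and Cav1 could not be ordered, since Jph1 was the higher in 5 of 8 libraries. Cav1 was 5.86 to 8.76 times Cav2 in the same library, and Cav2 was above Bin1 in 8 of 8 libraries, by 2.47 to 14.8 times. Dividing by the longest transcript in place of all exons left this order of medians as it was.

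**Figure D1:**
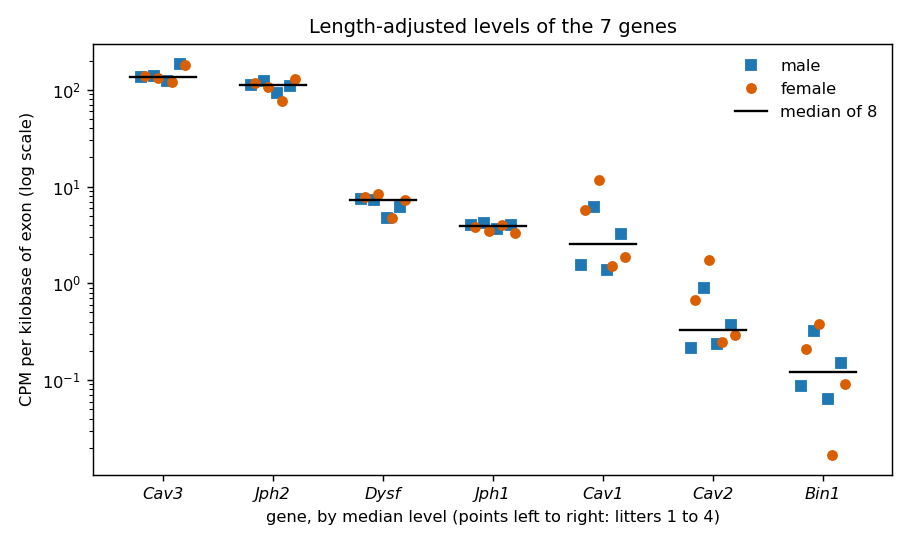
CPM per kilobase of annotated exon (log scale) for the 7 genes, ordered by their median (black line), with squares for male and circles for female libraries and litters 1 to 4 from left to right. Cav3 and Jph2, with medians of 137 and 111, lie above all other members, and Bin1 with 0.120 is the lowest.

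Among the junctophilins, Jph2, the cardiac form, was the one at a high level. It had 480, 525, 399 and 465 CPM in the males of litters 1 to 4 and 495, 454, 330 and 551 CPM in the females. Both pups of litter 3 lie below all other libraries. Jph1, known mainly from skeletal muscle, had 20.2, 20.8, 18.1 and 19.8 CPM in the males and 19.0, 17.4, 20.2 and 16.6 CPM in the females. Jph1 was the steadiest member, with 1.25 times between its highest and lowest library, against 1.67 times for Jph2. Within a library Jph1 had 3.02 to 6.11 counts per 100 counts of Jph2, a ratio that does not depend on scaling. The highest ratio, 6.11 (5.41 to 6.88), was in the female of litter 3 and the lowest, 3.02 (2.72 to 3.34), in the female of litter 4. Jph3 and Jph4, the forms of brain, had at most 1 and 7 counts in a library and were below the filter on low counts.

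Bin1 lies on the plus strand of chromosome 18 (chr18:32377230-32435737, mm10) and was close to absent. Its counts were 9, 32, 6 and 11 in the males of litters 1 to 4 and 21, 35, 1 and 9 in the females, which is 0.361, 1.33, 0.260 and 0.614 CPM and 0.864, 1.57, 0.0688 and 0.378 CPM. Litter 2 held the 2 highest libraries and litter 3 the 2 lowest. The single count in the female of litter 3 has an interval of 0.00174 to 0.383 CPM, while that of the female of litter 2, 1.10 to 2.19 CPM, does not reach it. Bin1 passed the filter on low counts, though it had at most 11 counts in 5 of the 8 libraries. Of its relatives, Amph and Bin2 had at most 5 and 4 counts in a library, and Bin3, the 1 relative tested, had 6.70 to 11.8 CPM.

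Cav3, the muscle caveolin, had 158, 160, 144 and 216 CPM in the males of litters 1 to 4 and 162, 153, 140 and 211 CPM in the females. Within a litter the female had 0.956 to 1.02 times the level of the male, litter 4 stood above the other litters and litter 3 below. Cav1 had 5.30, 21.2, 4.73 and 11.1 CPM in the males and 19.8, 40.6, 5.23 and 6.46 CPM in the females, with 8.59 times between its highest and lowest library. Both libraries of litter 2 and the female of litter 1 were high, and the other 5 were at 11.1 CPM or below. Cav2, which joins caveolae together with caveolin 1, had 0.723, 2.95, 0.781 and 1.23 CPM in the males and 2.26, 5.85, 0.826 and 0.966 CPM in the females. The order of the libraries was nearly that of Cav1, and the same 3 libraries were high. Cav2 had 11.1 to 16.5 counts per 100 counts of Cav1 across libraries, and the 95% intervals of these 8 ratios all include 14.2, their median. Cav1 had 3.07 to 26.6 counts per 100 counts of Cav3, so that this ratio ran over 8.65 times.

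Dysf, the ferlin of surface membranes, had 62.3, 60.5, 39.7 and 51.0 CPM in the males of litters 1 to 4. The females had 65.2, 69.4, 39.8 and 60.7 CPM. Both pups of litter 3 lie below the other 6 libraries, and they differ by less than their counting intervals. Between the highest and the lowest library there were 1.75 times.

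**Figure D2:**
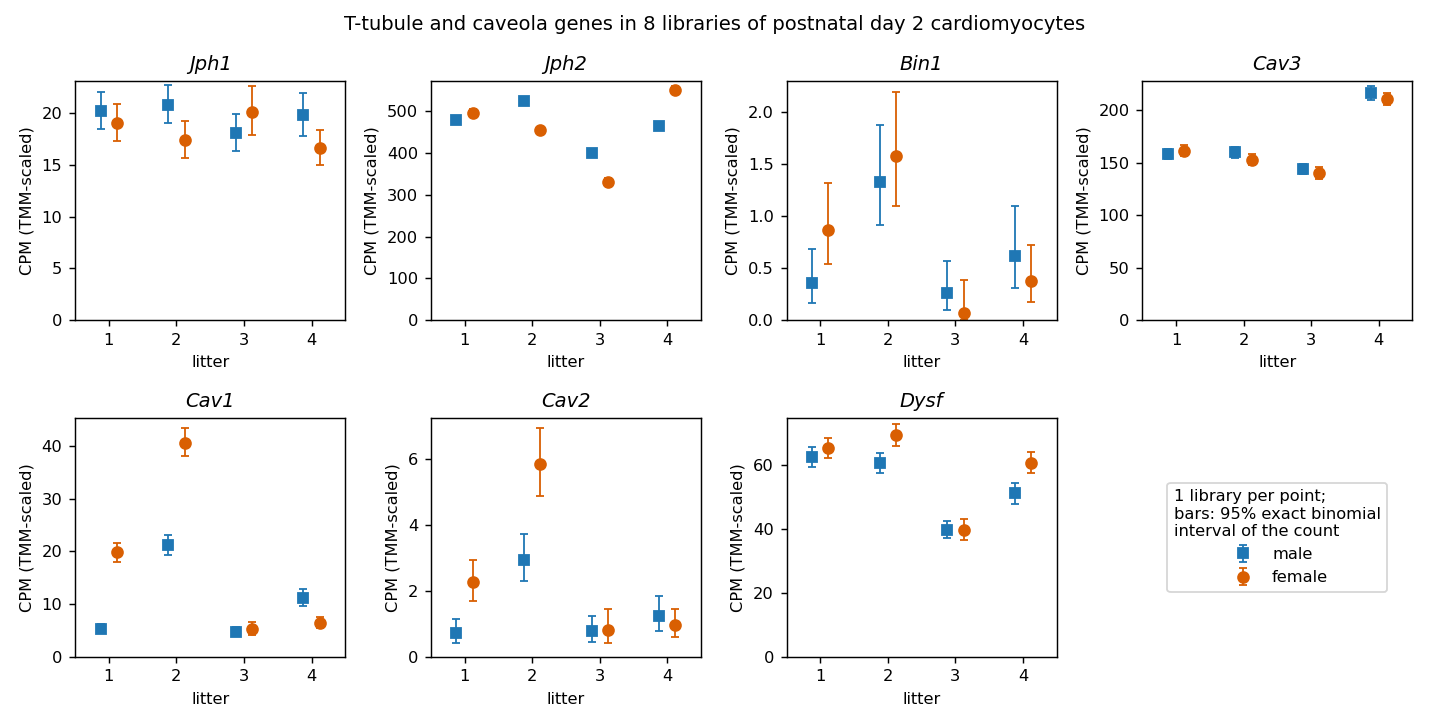
CPM (TMM-scaled) of each of the 7 genes by litter, with squares for the male and circles for the female library and bars for the 95% exact binomial interval of the count. Cav1, Cav2 and Bin1 peak in litter 2, Cav3 in litter 4, and Jph2 and Dysf are lowest in litter 3.

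The comparison of sexes asks whether male and female pups differ in these genes. None of the 7 members passed, where 0.0436% of all 13771 tested genes did (6 genes, edgeR's quasi-likelihood test, adjusted p under 0.05, 306 genes at an unadjusted p under 0.05). The log2 fold changes, male minus female, were 0.11 (SE 0.09) for Jph1, 0.03 (SE 0.15) for Jph2, 0.03 (SE 0.15) for Cav3 and -0.14 (SE 0.18) for Dysf. They were -0.21 (SE 0.69) for Bin1, -0.78 (SE 0.65) for Cav1 and -0.81 (SE 0.65) for Cav2. Levels of these 3 genes also differed most between litters of 1 sex. In fits lacking a single library the value of Cav1 ran from -1.38 to -0.012, the latter without the female of litter 2, and that of Dysf from -0.29 to -0.02. Each edgeR adjusted p was 1.00, and with litter as a block, where 0.211% of genes passed (29 genes), adjusted p-values of the members ran from 0.375 to 0.895. In that fit, which compares pups of a litter, Cav2 changed by -0.74 (SE 0.29), Cav1 by -0.66 (SE 0.29) and Dysf by -0.13 (SE 0.06), with unadjusted p-values of 0.0249, 0.0432 and 0.0486, none of which held after adjustment.

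Within litters Cav1 had no single direction. It was 3.73 times higher in the female than in the male of litter 1, 1.92 times in litter 2 and 1.11 times in litter 3, and it was 1.72 times higher in the male of litter 4. Cav2 followed with 3.13, 1.98 and 1.06 times in litters 1 to 3 and 1.27 times the other way in litter 4. The endothelial sum moved with them in the same pairs, at 32.5 CPM in the male and 112 CPM in the female of litter 1, 162 and 261 CPM in litter 2, 37.0 and 38.5 CPM in litter 3, and 64.8 and 47.7 CPM in litter 4. The fibroblast sum was instead higher in the male of every litter, at 353 CPM in the male and 301 CPM in the female of litter 1, 465 and 367 CPM in litter 2, 265 and 251 CPM in litter 3, and 459 and 347 CPM in litter 4. Of each fibroblast sum, 148 to 202 CPM came from Gsn alone, which was higher in the female of every litter. With litter as a block, 6 of 15 fibroblast genes passed the test of sex, against 0.211% of all tested genes, and 1 of 16 endothelial genes did.

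The comparison of litters asks whether pups of different litters differ. The litter test takes all 4 litters together in a model with sex, and 32.1% of tested genes passed it. Among the members 6 of 7 passed, and all 7 had been tested. Their log2 range over litters, the distance between the highest and lowest litter, had a median of 0.70, against 0.37 over all tested genes. Jph1 was the member that did not pass, with a log2 range of 0.11 (edgeR adjusted p = 0.848). Log2 ranges of the others were 0.48 for Jph2 (edgeR adjusted p = 0.0159), 0.59 for Cav3 (0.000366) and 0.70 for Dysf (0.000447). Those of Cav1, Cav2 and Bin1 were 2.55 (0.00299), 2.35 (0.00230) and 2.92 (0.0120). Bin1 passed the filter on low counts only with litter 2 included, the litter where it was highest. Its place among the 6 thus depends on that litter.

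Which litter carried the difference varied among the members. Each litter was set against the mean of the other 3, and these 4 comparisons share libraries. In litter 3, where 28.3% of tested genes passed (14.8% lower, 13.6% higher), 6 of 7 members were lower and 0 higher. With DESeq2 the calls of Bin1 (adjusted p = 0.0521), Cav1 (0.0567) and Cav2 (0.0555) in litter 3 were lost and those of Jph2, Cav3 and Dysf kept. Jph2 fell by 0.44 on the log2 scale (SE 0.09, edgeR adjusted p = 0.00359), Dysf by 0.62 (SE 0.07, 0.000101) and Cav3 by 0.30 (SE 0.06, 0.00247). The summed level of the cardiomyocyte list was also lowest in both pups of litter 3, and its part in these results was not tested. Cav1 fell by 1.51 (SE 0.39, 0.0131), Bin1 by 1.97 (SE 0.59, 0.0251) and Cav2 by 1.16 (SE 0.39, 0.0422).

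In litter 2, where 4.18% of tested genes passed (3.3% higher, 0.879% lower), 4 of 7 members were higher and 0 lower. The 4 include Bin1, which passed the filter on low counts only with litter 2 included. With DESeq2 the calls of Bin1 (adjusted p = 0.0728) and Cav1 (0.0638) in litter 2 were lost. Cav2 rose by 1.97 (SE 0.28, edgeR adjusted p = 0.00207), Bin1 by 1.91 (SE 0.38, 0.0151), Cav1 by 1.88 (SE 0.29, 0.00326) and Dysf by 0.31 (SE 0.07, 0.0225). The value of Bin1 is a description only, since the litter where it was high also brought it past the filter. All 16 genes of the endothelial list and 10 of 15 fibroblast genes were also higher in litter 2, and 11 and 12 of them were lower in litter 3. In litter 4, where 10.5% of genes passed (4.71% higher, 5.8% lower), Cav3 was the member that rose, by 0.49 (SE 0.05, edgeR adjusted p = 0.00118). In that litter 8 of 15 cardiomyocyte genes were higher and 2 lower, 10 of 15 fibroblast genes were higher and 0 lower, and 4 of 10 mural genes were higher and 1 lower. Their part in the result was not tested. In litter 1, where 13.3% passed (7.86% higher, 5.41% lower), Dysf was the one, with a rise of 0.28 (SE 0.07, 0.0178).

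**Figure D3:**
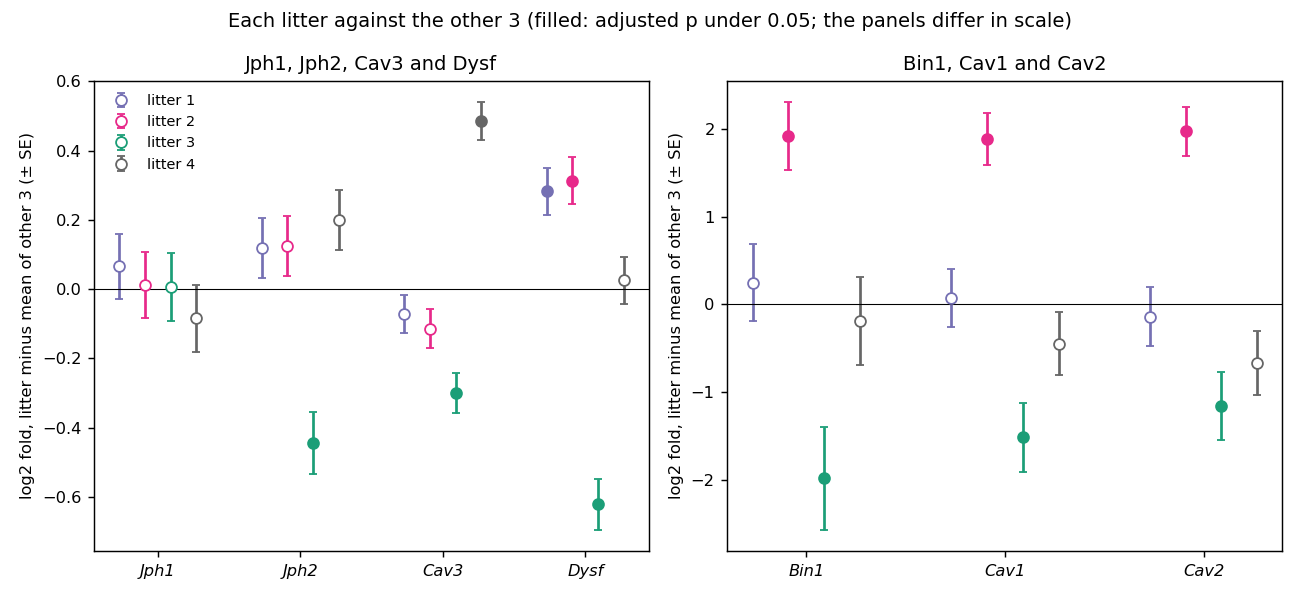
Log2 fold change of each gene in 1 litter against the mean of the other 3, with bars for the standard error and filled points for an adjusted p under 0.05; the 2 panels differ in scale. Litter 3 is below 0 and filled for 6 of 7 genes, litter 2 is the highest point for Bin1, Cav1 and Cav2, and litter 4 for Cav3.

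Single litters and libraries carried several of these calls. Without litter 3 the log2 range of Jph2 was 0.06 (edgeR adjusted p = 0.868), that of Dysf 0.22 (0.161) and that of Bin1 1.58 (0.0548), none past the threshold, and the range of Cav1 was 1.75 (0.0119). Without litter 2 the range of Cav1 was 1.22 (0.111) and that of Cav2 0.78 (0.394), and without litter 4 that of Cav3 was 0.17 (0.155). Bin1 was below the filter on low counts without litter 2. These fits called 13.7%, 33.4% and 26.6% of genes without litters 3, 2 and 4. Without the female of litter 3, Jph2 lost its call both in the litter test (log2 range 0.33, 0.220) and in litter 3 (-0.30, 0.103). The adjusted p of Bin1 in the litter test was 0.0524 and 0.0559 without the male or the female of litter 2, and its log2 range was 4.44 and 2.30 without the male or the female of litter 3.

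Calls of single litters were lost as follows. In litter 3, Cav1 had -1.22 (edgeR adjusted p = 0.138) and Bin1 -1.35 (0.238) without the female of that litter. Bin1 also lost its call without the male of litter 4 (-1.77, 0.0552), and had -3.49 (0.0453) without the male of litter 3. Cav2 in litter 3 lost its call without any of 5 libraries, with adjusted p-values up to 0.355 and values from -1.57 to -0.79. These were the females of litters 1, 2 and 3 and the males of litters 3 and 4. In litter 2, Cav1 had 1.65 (0.0942) and Cav2 1.73 (0.0968) without the female of that litter, and Bin1 lost its call without either pup of it (0.114 and 0.193). Dysf lost its call in litter 2 without either pup of it (0.101 and 0.285) or the female of litter 1 (0.0674), and in litter 1 without either pup of it (0.274 and 0.134). Cav3 kept its calls in litters 3 and 4, and Dysf its call in litter 3, in all 8 fits lacking a single library. Where a litter was left with 1 library, that library was taken to vary like the rest.

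Levels of Cav1 and Cav2 moved together with endothelial markers, which include the adhesion proteins Pecam1 and Cdh5 and the receptors Kdr, Tek and Tie1. The summed level of the 16 endothelial genes was 32.5, 162, 37.0 and 64.8 CPM in the males of litters 1 to 4 and 112, 261, 38.5 and 47.7 CPM in the females, a range of 8.03 times. Cav1 had 12.8 to 17.7 counts per 100 counts of this sum in the 8 libraries, and Cav2 had 1.83 to 2.24. The ratio of Cav1 to the endothelial sum thus ran over 1.39 times and that of Cav2 over 1.22 times, where the levels themselves ran over 8.59 and 8.09 times. For Cav3 the same ratio ran over 8.31 times and for Jph2 over 8.49 times. Their levels ran over only 1.54 and 1.67 times, so these 2 ratios mainly restate the range of the sum. Bin1 had 0.179 counts per 100 in the female of litter 3, where it rests on 1 count, and 0.603 to 1.11 in the other 7 libraries. Fibroblast markers also differed between litters, with 14 of 15 past the litter test, against 32.1% of all tested genes, and a median log2 range of 2.04, against 0.37. Postn, a matrix protein, ran from 5.57 CPM in the female of litter 3 to 71.7 CPM in the male of litter 2, and the collagen gene Col3a1 from 9.43 to 74.4 CPM in the same libraries. Their sum, 251 to 465 CPM, moved less, and Gsn, at 148 to 202 CPM the most abundant gene of the list, was higher in litter 3. In the female of litter 3 Gsn made up 200 of the 251 CPM. The sum therefore understates how far the other fibroblast genes moved. Of 10 mural cell genes 8 passed, against the same 32.1%, with a median log2 range of 1.44. The part of cells other than cardiomyocytes in the levels of Cav1, Cav2 and Bin1 was not tested.

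**Figure D4:**
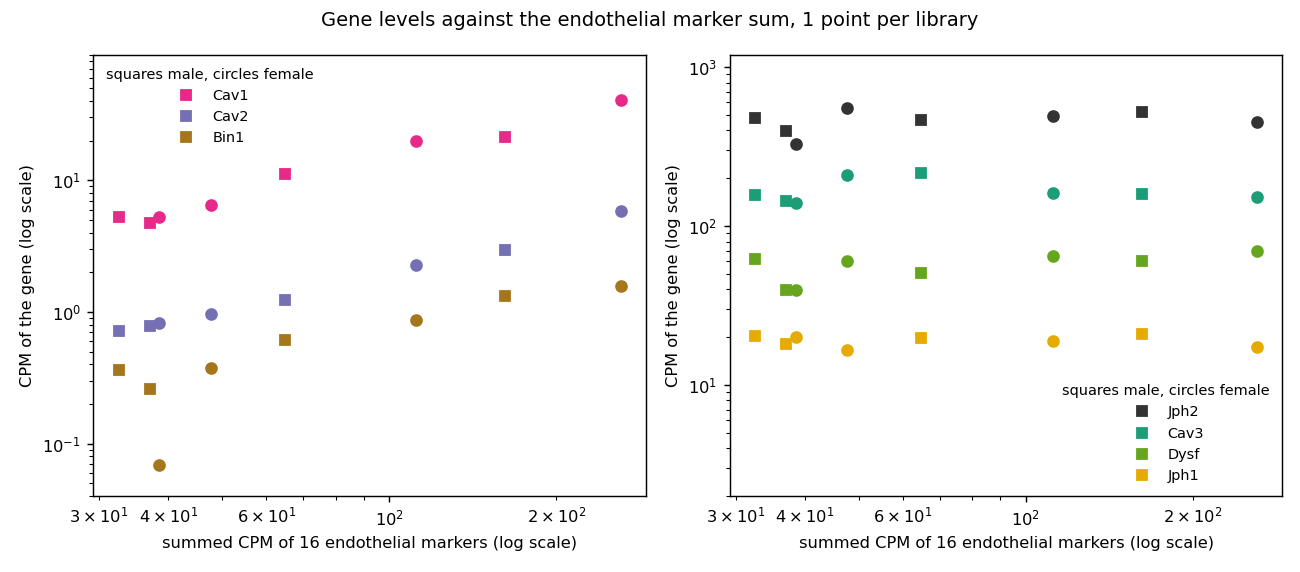
CPM of each gene against the summed CPM of 16 endothelial markers, both on log scales, 1 point per library, squares for males and circles for females. Cav1, Cav2 and Bin1 rise with the sum from 32.5 to 261 CPM, while the other 4 genes span at most 1.75 times. Among those, Dysf is highest, at 69.4 CPM, where the sum is highest.

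The genes whose pattern over the 8 libraries was most like that of each member were found by the root mean square difference of log2 CPM, each gene centred on its own mean. Nearest to Cav1 were Tie1 (a difference of 0.10), Esam (0.10), an endothelial adhesion protein, and Kif26a (0.15), against a median of 1.09 over all tested genes. Nearest to Cav2 were Esam (0.14), the scavenger receptor gene Stab1 (0.15) and Cbfa2t3 (0.16), against 0.99. For Bin1 they were the cadherin gene Dchs1 (0.23) and the transcription factor genes Ebf1 (0.25) and Ets1 (0.26), against 1.06. Of the 16 endothelial genes, 10 were among the 100 nearest to Cav1, 10 among those of Cav2 and 6 among those of Bin1. None was among the 100 nearest to Jph1, Jph2, Cav3 or Dysf. Those 4 members had log2 SDs of 0.116 to 0.314, while the endothelial genes had a median log2 range over litters of 2.59. The measure depends on the size of changes, so steady genes could hardly lie near the endothelial ones. It does not tell whether the 4 follow endothelial markers in direction.

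The muscle members had other neighbours. Nearest to Jph2 were Ppme1 (0.05), Slc4a2 (0.07) and Dnajc11 (0.08), against a median of 0.30. For Cav3 they were Psme2 (0.05), Mov10l1 (0.06) and Nat8f4 (0.06), against 0.29, and for Dysf the protease gene Ctsb (0.07), Rap1gap2 (0.07) and Hirip3 (0.07), against 0.35. Jph1 was nearest to Pum3 (0.05), Pgrmc1 (0.05) and Lmbrd1 (0.05), against 0.21, and a gene this level over libraries is near to many. Among the members themselves, Cav1 and Cav2 differed by 0.21, Jph2 and Dysf by 0.18 and Jph2 and Cav3 by 0.20, while Cav1 and Cav3 differed by 1.10.

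The other genes of caveolae were then counted. Of 11 genes of the caveola coat and neck, 10 were tested, 9 passed the litter test, against 32.1% of all tested genes, and none the test of sex. Their median log2 range over litters was 0.57, against 0.37 over all tested genes. In litter 3, 6 were lower and 2 higher, against 14.8% and 13.6% of all tested genes. Cavin4, the muscle cavin (Murc in the table), rose in litter 1 by 0.62 (SE 0.07, edgeR adjusted p = 0.000188) and fell in litter 3 by 0.43 (SE 0.07, 0.00147). Cavin1, the general coat protein (Ptrf in the table), had 224 ± 28.6 CPM (SD, n = 8) and fell in litter 3 by 0.38 (SE 0.08, 0.00406). Ehd4, an ATPase that shapes membrane, fell in litter 3 by 0.55 (SE 0.07, 0.000158), while its relative Ehd1 rose there by 0.48 (SE 0.07, 0.000383). Ehd2, which sits at the neck of caveolae, rose in litter 2 by 0.51 (SE 0.12, 0.0357) and was the 1 gene of this list to rise there. Cavin2 (Sdpr in the table) fell in litter 4 by 0.42 (SE 0.08, 0.00914).

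Of 15 genes of ferlins and membrane repair, 12 were tested and 8 passed the litter test, against 32.1% of all tested genes. Their median log2 range of 0.44 was close to the 0.37 of all tested genes. In litter 3, 7 of the 12 were lower, against 14.8% of all tested genes, and 0 higher. Trim72 (MG53), a muscle protein that acts with dysferlin in membrane resealing, had 57.3, 47.0, 15.8 and 34.8 CPM in the males of litters 1 to 4 and 57.1, 61.8, 17.6 and 42.7 CPM in the females. Both pups of litter 3 were below all others, and Trim72 fell there by 1.56 (SE 0.09, edgeR adjusted p = 1.32e-06). It rose in litter 1 by 0.81 (SE 0.08, 7.53e-05) and in litter 2 by 0.70 (SE 0.08, 0.000489). Ahnak, a large scaffold protein that binds dysferlin, fell in litter 3 by 0.33 (SE 0.06, 0.00161) and Anxa6, an annexin, by 0.28 (SE 0.06, 0.00541). Anxa1 rose in litter 2 by 2.06 (SE 0.33, 0.00408) and fell in litter 3 by 2.16 (SE 0.52, 0.0089), from at most 53 counts in a library.

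Of 14 genes of T-tubule remodelling, all tested, 3 passed the litter test, which is 21.4% against 32.1% of all tested genes, and none passed the test of sex. Their median log2 range was 0.24, against 0.37. Tcap, the titin cap protein, rose in litter 4 by 0.35 (SE 0.07, edgeR adjusted p = 0.014). It fell in litter 1 by 0.25 (SE 0.08, 0.0479). Ank2, ankyrin B, rose in litter 1 by 0.25 (SE 0.06, 0.0145) and fell in litter 4 by 0.21 (SE 0.06, 0.0387). In litter 3, 3 genes were lower and 1 higher, against 14.8% and 13.6% of all tested genes. Popdc3, a membrane protein of muscle, rose there by 0.31 (SE 0.07, 0.00832), while its relatives Popdc1 (Bves in the table) and Popdc2 fell by 0.19 (SE 0.06, 0.0298) and 0.22 (SE 0.06, 0.0186), and the kinase gene Speg fell by 0.28 (SE 0.08, 0.0229). Mtm1, a lipid phosphatase that acts with amphiphysin 2, had 15 ± 1.34 CPM (SD, n = 8), and Dnm2, dynamin 2, had 99.9 ± 4.91 CPM (SD, n = 8), and neither passed the litter test (edgeR adjusted p = 0.174 and 0.468).

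Of 16 genes of the dyad, all tested, 8 passed the litter test, against 32.1% of all tested genes, with a median log2 range of 0.29 against 0.37. None passed the test of sex, against 0.0436% of all tested genes, and with litter as a block, where 0.211% passed, 1 did, Slc8a1, which was higher in males by 0.29 on the log2 scale (SE 0.05, edgeR adjusted p = 0.0466). In litter 3, 6 were lower and 2 higher, against 14.8% and 13.6% of all tested genes. In litter 4, in which Cav3 was highest, 3 were lower and 0 higher, against 5.8% and 4.71%. They were Ryr2, the calcium release channel, by 0.41 (SE 0.06, edgeR adjusted p = 0.00297), the exchanger gene Slc8a1 by 0.51 (SE 0.06, 0.00141) and the channel subunit gene Cacna2d1 by 0.35 (SE 0.06, 0.00851). Hrc, a calcium-binding protein of the reticulum, fell in litter 3 by 0.49 (SE 0.08, 0.000882). Cacna1c, the pore of the L-type calcium channel, had 1020 ± 77.2 CPM (SD, n = 8) and a log2 range of 0.05 (edgeR adjusted p = 0.965). The lists were described by such counts and no test of a list was made.

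**Figure D5:**
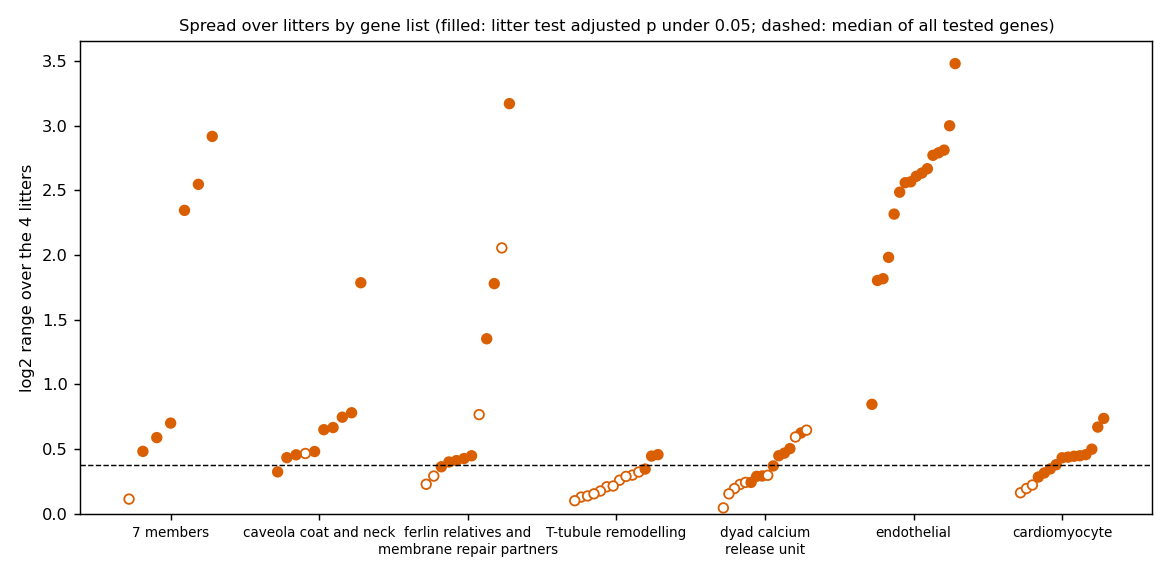
Log2 range over the 4 litters for the 7 members and the tested genes of 6 lists, 1 point per gene, filled where the litter test had an adjusted p under 0.05, with the median of all tested genes (0.37) dashed. The 3 highest members, Bin1, Cav1 and Cav2, lie within the range of the endothelial genes, and most T-tubule remodelling genes lie below the dashed line.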

How the data were processed

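RNA was measured in cardiomyocytes of 4 male and 4 female mouse pups, 1 of each sex from each of 4 litters. The authors deposited raw read counts per gene symbol, 1 column for each library. STAR 2.7.3a and the mm10 build are named in the submitters' processing notes, while the counting program, annotation and strand setting are not given in the sources used here. The labels give polyadenylated RNA as the molecule but name a total RNA kit, and how the cardiomyocytes were purified is not given there. Members and gene lists were chosen with earlier results of these data known. The 4 cavins and Popdc1 were matched through older symbols.

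Genes were filtered with filterByExpr on sex (13771 kept) and scaled with TMM in edgeR 4.0.16 (R 4.3.3). Sexes were compared by the quasi-likelihood F test without a litter term (6 residual degrees of freedom). Litters were compared in a model with sex (3 residual degrees of freedom), first together and then each against the mean of the other 3. P-values were adjusted over all tested genes by Benjamini-Hochberg, threshold 0.05, and standard errors are the size of the log2 fold change over the square root of F. P-values of the sex test measure the spread between pups of a sex, with litter differences included. Those of the litter tests measure the spread between the 2 pups of a litter once sex is fitted. No litter held 2 pups of a sex. The fits were tested on simulated data with the same spread for all genes and, for the test of sex, no litter differences. Such data do not show how the fits behave for genes of larger spread, such as Bin1 and Cav1. DESeq2 1.42.0 was an alternative. Likeness used log2 CPM with a prior count of 2. Named genes were the members, the 3 genes most like each member, up to 4 genes past a test from each pathway list, and lists of 5 or fewer. Genes outside that rule (Ehd2, Cavin1, Mtm1, Dnm2, Popdc1, Popdc2, Speg, Cacna1c and single markers of other cell types) were named after their values were seen.

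The labels give the number of a sample as its litter, so each number joins the 2 pups of a litter. Once sex means were subtracted, the correlation across genes within a litter was 0.506, 0.503, 0.696 and 0.367, against -0.482 to 0.27 between litters. Litter as a block was an alternative in the test of sex. No library repeated another within sampling noise (chi-square per degree of freedom of 6.8 to 48.3 between libraries). Exon lengths, coordinates and overlaps came from GENCODE M21 on GRCm38, the assembly of mm10, though it is not known that the authors counted on this annotation. Promoter rows were found for 5 of the 7 members.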

Additional observations from a re-analysis of the deposited data

Results flagged for a closer look

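Among 48 groups of 4 libraries of a sex (members, ratios and summed lists), 5 had a highest or lowest library separated from the rest by most of the range. About 2.4 such groups arise by chance, and none was a level or ratio of the 7 members. All 5 lie in litter 3. The summed level of the ferlin and membrane repair list reached 812 CPM in its male, while males of litters 1, 2 and 4 had 994 to 1027 CPM. Its female had 805 CPM, and the other females 1010 to 1026 CPM. The female of litter 3 also stood apart in the mural list, at 917 CPM against 1410 to 1432 CPM. It did so too in the Schwann and neural list, at 209 CPM against 125 to 137 CPM, and in the atrial cardiomyocyte list, at 1707 CPM against 289 to 483 CPM. In the mural list, Acta2 had 343 CPM in that library, against 804 to 896 CPM in the other females. Ncam1 made up 195 of the 209 CPM of the Schwann and neural sum, with Sox10 and Tubb3 at 0 counts. Nppa made up 1511 of the 1707 CPM of the atrial sum. In litter 3, 4 of the 11 atrial genes were higher and 1 lower, against 13.6% and 14.8% of all tested genes. The male of litter 3, though not flagged there, went the same way. It had 940 CPM in the mural list, 181 CPM in the Schwann and neural list and 1427 CPM in the atrial list. The other males had 1354 to 1554, 129 to 144 and 452 to 947 CPM, in that order.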

How the results depend on the processing

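For the 7 members and 3 ratios, 374 of 414 values under alternatives kept their direction and side of the threshold, 32 lost a call and 8 reversed. The 414 include the sex folds, the litter range of Jph1 and the ratios, none of which had a call to lose. All 32 lost calls thus fall among the results that had been called. All 8 reversals were uncalled sex folds in fits without 1 library, where the log2 fold change ran from -0.11 to 0.13 for Jph2, -0.89 to 0.45 for Bin1, -1.48 to 0.041 for Cav2 and -0.12 to 0.16 for Cav3. No direction of a member changed between TMM, RLE and library size alone. DESeq2 ended 5 calls of members, given beside those of litters 2 and 3. With a mean of at least 50 counts Bin1 and Cav2 were not tested. The litter as a replicate block gave 29 genes by sex against 6, and called no member. Leaving out single libraries gave 359 to 1869 genes in litter 1, 153 to 752 in litter 2, 1704 to 3791 in litter 3 and 322 to 1302 in litter 4. For litter 2, no filter gave 1249 genes and a mean of at least 50 counts 345, against 575. Without litter 3, 1898 genes passed the litter test, 1821 of them among the 4427. Fits without litters 1, 2 or 4 were chosen after seeing the data. The causes were not tested. Bin1 had 1 to 35 counts per library, which limits its precision.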
